A study of Mus musculus with 12 samples.

Results

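Nuclear receptors are transcription factors that are switched on by small fat-soluble ligands such as hormones, vitamins, bile acids, fatty acids and drugs, and the liver relies on many of them to adjust metabolism. The genes described here are 35 members of this superfamily, chosen by name out of the 54838 genes in the count table. The glucocorticoid receptor GR, the direct target of the injected drug, and the clock repressors of the Rev-erb family were left out of the 35 members. All 35 members had at least 1 read in the 12 libraries, 32 reached 10 counts in at least 3 libraries, and 11 changed in at least 1 of 6 comparisons.

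RNA-seq covered liver samples from 12 C57BL/6J mice, 3 in each of 4 groups. For 7 days the animals had plain or zinc-supplemented (25 mM ZnSO4) drinking water. They were then injected intraperitoneally with PBS alone or with 200 µg dexamethasone (Dex), a synthetic GR ligand, and were sampled after 2 h. The groups are called water-PBS, which is the control, zinc-PBS, water-Dex and zinc-Dex. The animals were not genetically modified, and the labels give no age. The study's methods describe the purchased C57BL/6J mice as female and give a single range of ages for all mice.

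Most liver receptors act in pairs. The retinoid X receptors (RXRs) are the shared partner of the sensors for fatty acids (PPARs), oxysterols (LXRs), bile acids (FXR), xenobiotics (CAR and PXR), vitamin D, thyroid hormone and retinoic acid, and a pair recruits coactivators or corepressors that open or close chromatin at target genes. Others need no known hormone: HNF4α maintains hepatocyte genes, RORα drives clock genes through the element that Rev-erbs repress, and SHP, encoded by *Nr0b2*, has no DNA-binding domain and represses other receptors.

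Total counts lay between 9091152 and 12303527 per library. Counts were divided by size factors to give normalized read counts, and a gene was called changed at an adjusted p under 0.05 (DESeq2, Wald test, Benjamini-Hochberg over all genes tested) with an absolute log2 fold change above 0.8. All 7 hepatocyte markers were counted in every library, and their summed normalized count was 1205460 to 1405370 in water-PBS and 1626410 to 1722810 in water-Dex. Most of this sum was *Alb*, with a mean of 1059940 in water-PBS and 1305430 in water-Dex. The list also holds *Tat*, which was called higher, with means of 9502 and 62751. In RNA from liver tissue with its cell types mixed, fewer cells of a type and less RNA per cell cannot be told apart. The labels number the samples of a group and describe them no further, so p-values measure the spread between these samples.

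The receptors differed widely in mRNA abundance. Levels were compared between genes as normalized read counts per kilobase of exon in water-PBS livers. *Hnf4a* was the most abundant at 1723 counts per kilobase, followed by *Rxra*, the main RXR, at 808, *Nr1h4*, which encodes FXR, at 537, *Ppara*, the fatty acid sensor of fasting, at 395, and *Nr0b2* at 361. The other end of the range held *Nr4a2* at 1.61, *Hnf4g* at 1.52, *Nr2f1* at 1.19, *Nr4a3* at 0.348 and *Vdr* at 0.302 counts per kilobase. *Nr4a3* had at most 3 counts in each library and no difference in it was detectable at this depth. Libraries of a group lay close together for the abundant receptors, with *Rxra* at 4143 to 4703 normalized counts in the water-PBS mice, whereas *Nr0b2* ranged from 280.0 to 584 in the same 3 mice.

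**Figure D1:**
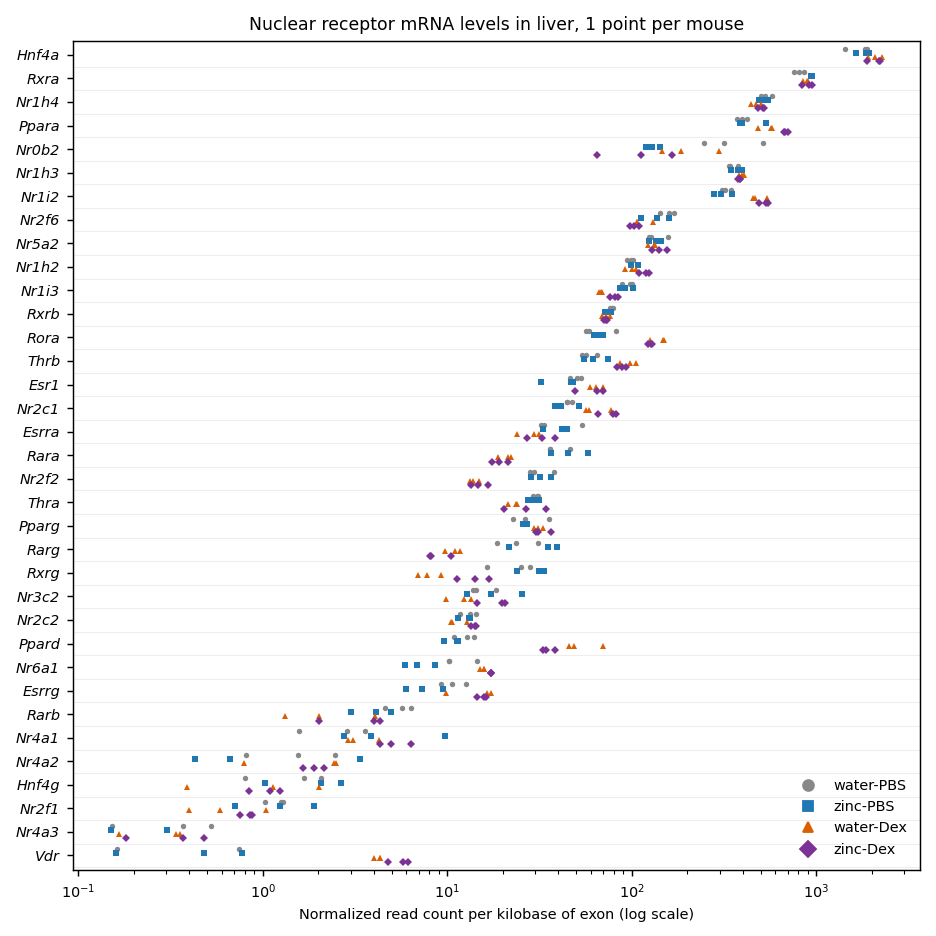
Normalized read count per kilobase of exon (log axis) of the 35 receptors in 12 livers, 1 point per mouse, ordered by the mean in water-PBS; libraries with 0 counts are not drawn. *Hnf4a* lies at the top near 1723 counts per kilobase and *Vdr* at the bottom near 0.302 in water-PBS, and the Dex-injected mice stand apart from the PBS-injected mice for *Vdr* and *Ppard*.

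The first question was what Dex did to the other nuclear receptors within 2 h. In mice on plain water, 8 of the 33 members with an adjusted p changed, against 9.68% of all genes tested. *Vdr*, *Ppard* and *Rora* rose. *Rara*, *Rarb*, *Rarg*, *Rxrg* and *Nr2f2* fell, so that all 3 retinoic acid receptor genes were lower. The share called higher was 4.89% and the share called lower 4.79% over all genes tested. The median log2 fold change was 0.00 over the members and -0.01 over all genes. Of the 33 members, 22 had water-Dex libraries that did not overlap the water-PBS libraries, 11 higher and 11 lower, against 39.0% of all genes tested. An adjusted p under 0.05, without regard to the fold, was reached by 14 of 33 members, against 21.6% of all genes tested.

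In mice on zinc water the same drug against PBS changed 9 of 34 members, against 9.68% of all genes tested. *Vdr*, *Ppard*, *Rora*, *Nr6a1* and *Esrrg* rose, and *Rara*, *Rarg*, *Rxrg* and *Nr2f2* fell. An adjusted p under 0.05 was reached by 15 of 34 members, against 20.1% of all genes tested, and in 19 of 34, 13 higher and 6 lower, the libraries did not overlap, against 38.1% of all genes tested. No library is shared between the comparison in water mice and that in zinc mice. The 7 members called in both were *Vdr*, *Ppard*, *Rora*, *Rara*, *Rarg*, *Rxrg* and *Nr2f2*, each in the same direction. This was 7 of the 8 called in water mice and 7 of the 9 called in zinc mice. The same overlap was not counted over all genes, so whether it is particular to receptors was not tested.

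**Figure D2:**
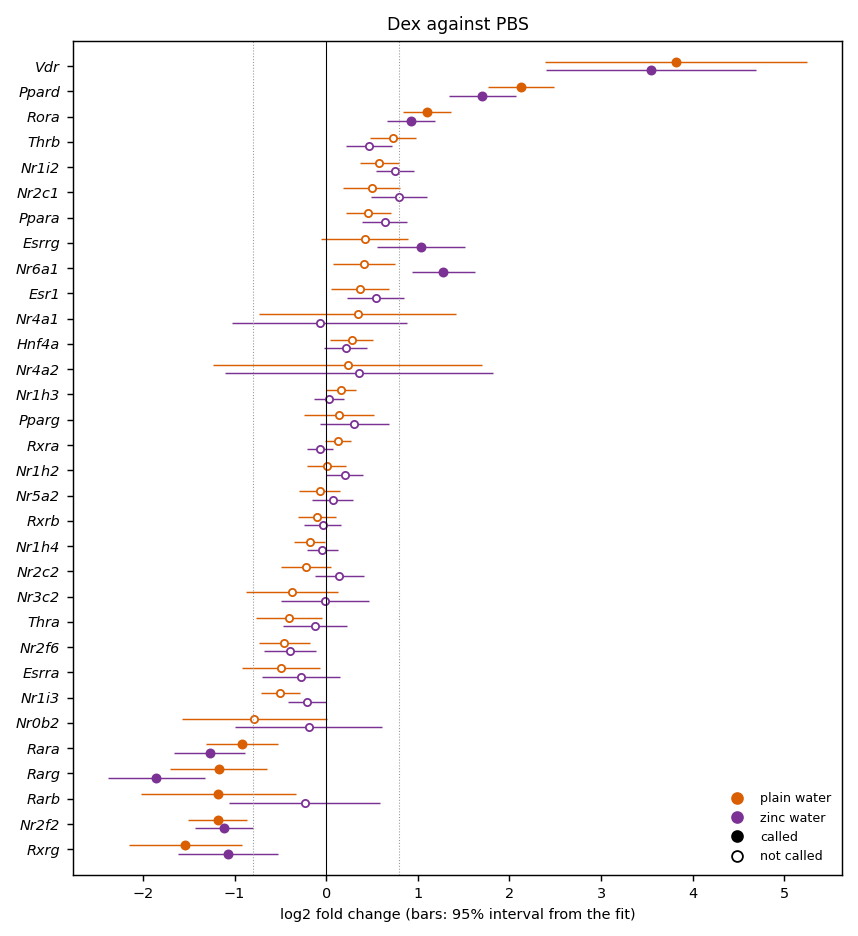
Log2 fold change of Dex against PBS for the receptors, in mice on plain water (orange) and on zinc water (purple), with 95% intervals from the DESeq2 fit, filled points for called genes and dotted lines at the threshold of 0.8. *Vdr* lies farthest to the right, at 3.82 and 3.54, and the 4 points farthest to the left in zinc mice are those of *Rarg*, *Rara*, *Nr2f2* and *Rxrg*.

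Among the lipid and bile acid sensors, *Ppard* stood out. It encodes PPARδ, a fatty acid sensor found in most tissues (ENSMUSG00000002250, chr17:28232700-28301474, + strand, GRCm38). The water-PBS mice had 105, 81.9 and 95.5 normalized counts, and the water-Dex mice 363, 345 and 523. The zinc-PBS mice had 84.8, 72.6 and 86.0, and the zinc-Dex mice 289, 257 and 247. Every Dex-injected mouse was above every PBS-injected mouse, and the 3 zinc-Dex mice were below the 3 water-Dex mice. The log2 fold change of Dex was 2.13 ± 0.18 (SE) in water mice, a 4.37-fold rise (adjusted p = 6.62e-29), and 1.70 ± 0.19 in zinc mice (adjusted p = 5.35e-18).

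The related *Ppara*, which drives fatty acid oxidation in fasting, had an adjusted p under 0.05 in both Dex comparisons without reaching the fold threshold. Its mean was 1516 ± 92.2 (SD, n = 3) normalized counts in water-PBS, 2083 ± 190 in water-Dex, 1685 ± 327 in zinc-PBS and 2624 ± 75.5 in zinc-Dex. The log2 fold change of Dex was 0.46 ± 0.13 (SE; adjusted p = 0.00219) in water mice and 0.64 ± 0.12 (adjusted p = 4.75e-06) in zinc mice. *Pparg*, known from fat cells, was at 83.1 ± 19.4 in water-PBS and 92.0 ± 5.22 in water-Dex, with overlapping libraries. The genes of FXR, of both LXRs and of *Nr5a2*, the activator of bile acid synthesis, had log2 fold changes between -0.18 and 0.20 in both Dex comparisons, and none had an adjusted p under 0.05.

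*Nr0b2* varied widely between mice (ENSMUSG00000037583, chr4:133553376-133556536, + strand). It encodes SHP, which FXR induces and which restrains bile acid synthesis. Normalized counts were 584, 360.4 and 280.0 in water-PBS against 161, 146 and 135 in zinc-PBS. After Dex they were 165, 336 and 209.8 on plain water against 73.9, 187 and 127 on zinc water. The zinc-PBS mice and the zinc-Dex mice were all below the 3 water-PBS mice, and the water-Dex mice overlapped the water-PBS and the zinc-Dex mice. Against water-PBS the log2 fold change was -1.66 ± 0.41 in zinc-Dex (adjusted p = 0.000404), a called decrease, and -1.47 ± 0.40 in zinc-PBS (adjusted p = 0.0726), which missed the threshold. In water-Dex it was -0.78 ± 0.40 (adjusted p = 0.166). In a fit of the 6 PBS-injected libraries alone the zinc-PBS difference had an adjusted p of 1.18e-07, and without water-PBS replicate 3 it was 0.0217, so the side of the threshold changed with the libraries in the fit.

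The 2 xenobiotic sensors had opposite signs. *Nr1i2* encodes PXR, which dexamethasone itself can bind in rodents at high doses. Its mean was 832 ± 48.7 normalized counts in water-PBS and 1245 ± 121 in water-Dex, with a log2 fold change of 0.58 ± 0.11 (adjusted p = 1.05e-06), and 796 ± 90.0 in zinc-PBS and 1341 ± 75.3 in zinc-Dex, with 0.75 ± 0.11 (adjusted p = 5.52e-11). *Nr1i3* encodes CAR, the sensor behind the phenobarbital response. Its mean was 422 ± 27.4 in water-PBS and 299 ± 6.33 in water-Dex, with a log2 fold change of -0.50 ± 0.11 (adjusted p = 4.27e-05), and the value in zinc mice was -0.21 ± 0.10 (adjusted p = 0.157). Neither gene passed the fold threshold, although the libraries did not overlap in either Dex comparison. Exons of *Tomm40l* on the opposite strand cover 74.9% of the exon length of *Nr1i3*, and the strand setting of the counting is not given in the sources used here. *Tomm40l* itself was at 51.1 ± 14.2 in water-PBS and 32.7 ± 9.02 in water-Dex (log2 -0.65, adjusted p = 0.149).

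*Vdr* had the largest fold change of the members. It encodes the vitamin D receptor (ENSMUSG00000022479, chr15:97854425-97910630, - strand), which hepatocytes carry at very low levels. On plain water, 4.20, 0.910 and 0 normalized counts after PBS compared with 24.4, 24.5 and 22.8 after Dex. On zinc water, 2.71, 4.37 and 0.905 compared with 32.6, 34.4 and 26.9. Each Dex-injected mouse was above each PBS-injected mouse, and the log2 fold change was 3.82 ± 0.73 (adjusted p = 2.91e-06) in water mice and 3.54 ± 0.59 (adjusted p = 3.44e-08) in zinc mice. Over the alternatives the value in water mice ran from 3.28 to 5.58, the latter without water-PBS replicate 1. The baseline rests on very few reads, 5 in the 3 water-PBS libraries against 70 in water-Dex, which gives a ratio of 14.1 with a 95% interval of 5.77 to 44.8 that covers counting error only. In zinc mice, 9 reads against 89 gave a ratio of 11.6 with an interval of 5.84 to 26.2.

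Vitamin D receptor mRNA in liver is known from stellate, Kupffer and endothelial cells, so the marker lists of these cells are given beside it. All 7 stellate markers had reads in every library, and their summed normalized count was 5392 to 5522 in water-PBS, 5912 to 5981 in water-Dex, 5081 to 5154 in zinc-PBS and 5778 to 6886 in zinc-Dex. The 6 Kupffer cell markers summed to 3846 to 5503 in water-PBS and 4297 to 5272 in water-Dex. The 7 sinusoidal endothelial markers summed to 3599 to 3855 in water-PBS and 4214 to 4654 in water-Dex, and the only called gene among them was *Lyve1*, at 160.0 ± 23.4 in water-PBS and 927 ± 29.0 in water-Dex. The ratio of the mean sum in water-Dex to that in water-PBS was 1.09 for the stellate, 0.948 for the Kupffer and 1.18 for the endothelial markers, and in zinc mice the same ratios of Dex to PBS were 1.22, 0.953 and 1.24. Without *Lyve1*, a choice made after its values were seen, the other 6 endothelial markers gave a ratio of 0.975 in water mice, and in zinc mice their mean sums were 3627 after PBS and 3626 after Dex.

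The retinoic acid receptor genes fell. *Rara* encodes the RARα form that most cells carry (ENSMUSG00000037992, chr11:98927818-98974942, + strand). Mice on plain water had 156, 157 and 202 normalized counts after PBS and 82.2, 96.8 and 93.0 after Dex. Mice on zinc water had 254, 159 and 198 after PBS and 76.0, 83.3 and 93.2 after Dex. All 6 Dex-injected mice were below all 6 PBS-injected mice, with a log2 fold change of -0.92 ± 0.20 (adjusted p = 4.88e-05) in water mice and -1.27 ± 0.20 (adjusted p = 3.62e-09) in zinc mice. Without water-PBS replicate 3 the value in water mice was -0.79, just short of the fold threshold.

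*Rarg* encodes RARγ, best known from skin and cartilage (ENSMUSG00000001288, chr15:102234938-102257517, - strand). In water mice, PBS left 132, 100.1 and 79.1 normalized counts and Dex 49.7, 46.8 and 41.6. In zinc mice, PBS left 149.8, 92.7 and 167 and Dex 44.5, 34.4 and 34.6. Again no Dex-injected mouse reached the lowest PBS-injected mouse, and the log2 fold change was -1.17 ± 0.27 (adjusted p = 0.000135) in water mice and -1.85 ± 0.27 (adjusted p = 2.36e-10) in zinc mice.

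*Rarb*, itself a classical target gene of retinoic acid receptors, was the call lost most often under other settings (ENSMUSG00000017491, chr14:16430839-16819156, - strand). It had 33.6, 30.0 and 24.2 normalized counts in water-PBS against 21.3, 10.6 and 6.93 in water-Dex. The zinc-PBS mice had 26.2, 15.7 and 21.7 against 22.8, 21.1 and 10.6 in zinc-Dex. The libraries did not overlap in water mice and overlapped in zinc mice, and the log2 fold change was -1.18 ± 0.43 (adjusted p = 0.0328) in water mice and -0.23 ± 0.42 in zinc mice. The call was lost in 6 of 14 alternative fits, with an adjusted p of up to 0.212 when water-Dex replicate 3 was left out. Exons of genes on the opposite strand, *Top2b* among them, cover 38.4% of the exon length of *Rarb*, and *Top2b* had a log2 fold change of 0.04 ± 0.13.

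The thyroid hormone receptors, estrogen receptor and mineralocorticoid receptor changed less. *Thrb*, the main thyroid hormone receptor of hepatocytes, was at 432 ± 44.3 normalized counts in water-PBS and 716 ± 70.3 in water-Dex, with a log2 fold change of 0.73 ± 0.13 (adjusted p = 2.92e-07), and its value in zinc mice was 0.47 ± 0.13 (adjusted p = 0.00245). *Esr1*, the estrogen receptor ERα, was at 578 ± 118 in zinc-PBS and 840 ± 148 in zinc-Dex, with a log2 fold change of 0.54 ± 0.16 (adjusted p = 0.00557), against 0.37 ± 0.16 (adjusted p = 0.0813) in water mice. Both missed the fold threshold. *Thra* was at 139 ± 4.41 in water-PBS and 105 ± 6.44 in water-Dex (log2 -0.40 ± 0.18, adjusted p = 0.0986). Exons of the Rev-erbα gene *Nr1d1* on the opposite strand cover 5.70% of the exon length of *Thra*, and *Nr1d1* fell from 1041 ± 243 to 235 ± 58.4 (log2 -2.15 ± 0.19, adjusted p = 4.86e-28). *Nr3c2*, which encodes the mineralocorticoid receptor and so binds glucocorticoids as well, was at 99.9 ± 16.0 in water-PBS and 77.1 ± 12.0 in water-Dex (log2 -0.38 ± 0.26, adjusted p = 0.335), and its libraries did not overlap.

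Of the 3 RXR genes, *Rxrg*, the form known from muscle and brain, was called (ENSMUSG00000015843, chr1:167598384-167639623, + strand). On plain water it had 37.8, 57.3 and 64.8 normalized counts after PBS and 21.3, 16.0 and 17.8 after Dex. On zinc water it had 55.1, 72.6 and 77.0 after PBS and 26.1, 38.9 and 32.7 after Dex. The libraries did not overlap in either Dex comparison, and the zinc-Dex mice lay above the water-Dex mice. The log2 fold change was -1.54 ± 0.31 (adjusted p = 1.35e-05) in water mice and -1.07 ± 0.28 (adjusted p = 0.00124) in zinc mice. *Rxra* and *Rxrb*, which carry most RXR mRNA per kilobase in liver, had log2 fold changes between -0.10 and 0.13 in both Dex comparisons. The 95% intervals of these 4 values lay within -0.30 and 0.27.

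Among hepatocyte factors and orphan receptors, *Rora* rose. It encodes RORα (ENSMUSG00000032238, chr9:68653786-69388246, + strand). The 3 water-PBS mice had 1078, 766 and 738 normalized counts and the 3 water-Dex mice 1637, 1927 and 1964. The 3 zinc-PBS mice had 917, 859 and 819 and the 3 zinc-Dex mice 1674, 1681 and 1595. All Dex-injected mice were above all PBS-injected mice, and the log2 fold change was 1.10 ± 0.13 (adjusted p = 9.60e-15) in water mice and 0.93 ± 0.13 (adjusted p = 9.87e-11) in zinc mice.

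*Nr2f2* fell in water and in zinc mice (ENSMUSG00000030551, chr7:70351944-70366735, - strand). It encodes COUP-TFII, a repressor known from veins, mesenchyme and hepatocyte metabolism. Normalized counts went from 243, 255 and 326 after PBS to 128, 115 and 119 after Dex on plain water. On zinc water they went from 246, 316 and 276 to 126, 117 and 144. No library of a Dex group overlapped a PBS group, and the log2 fold change was -1.19 ± 0.16 (adjusted p = 1.07e-11) in water mice and -1.11 ± 0.16 (adjusted p = 1.39e-10) in zinc mice. Of the marker lists given beside *Vdr*, the stellate sum was higher in water-Dex than in water-PBS. At an adjusted p under 0.05, 1 of the 7 stellate markers was higher and 1 lower, *Lrat* (log2 -0.72 ± 0.19, adjusted p = 0.00113). Of the 7 endothelial markers 1 was likewise higher and 1 lower, *Fcgr2b* (-0.31 ± 0.08, adjusted p = 0.00135). The median log2 fold changes were 0.12 for the stellate and 0.07 for the endothelial markers. The part of these cell types in the value of *Nr2f2* was not tested.

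*Nr6a1* and *Esrrg* were called in zinc mice alone. *Nr6a1* encodes the germ cell nuclear factor GCNF (ENSMUSG00000063972, chr2:38723370-38927688, - strand), which represses genes of pluripotency. After PBS it had 158, 111 and 111 normalized counts on plain water and 64.1, 74.3 and 93.2 on zinc water. After Dex it had 163, 171 and 170.2 on plain water and 187, 188 and 187 on zinc water. The zinc-PBS mice were the lowest of the 12 and the zinc-Dex mice the highest. The log2 fold change of Dex was 1.28 ± 0.18 (adjusted p = 1.80e-11) in zinc mice and 0.41 ± 0.17 (adjusted p = 0.0663) in water mice. *Esrrg* encodes the estrogen-related receptor ERRγ, a factor for mitochondrial and fasting genes (ENSMUSG00000026610, chr1:187608791-188214885, + strand). After PBS it had 78.8, 57.3 and 65.9 normalized counts on plain water and 37.0, 58.6 and 45.3 on zinc water. After Dex it had 60.9, 107 and 102 on plain water and 97.8, 90.0 and 101 on zinc water. Its libraries overlapped in water mice and did not in zinc mice, where the log2 fold change was 1.03 ± 0.25 (adjusted p = 0.000327), against 0.42 ± 0.24 in water mice. The difference between water and zinc mice is the interaction, which was not called for either gene.

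**Figure D3:**
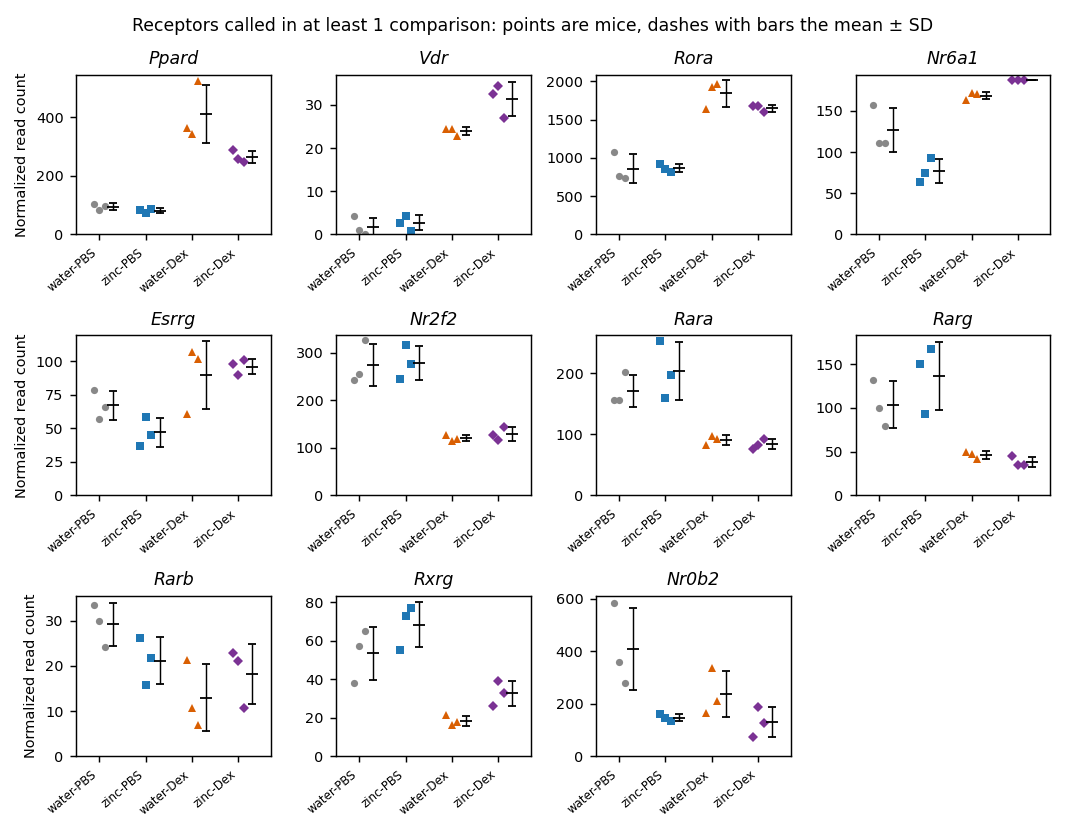
Normalized read counts of the 11 receptors called in at least 1 comparison, 1 point per mouse in 4 groups of 3, with the mean ± SD beside the points. *Ppard*, *Vdr* and *Rora* are higher in both Dex groups, *Nr2f2*, *Rara*, *Rarg* and *Rxrg* are lower in both, and *Nr0b2* is low in both zinc groups.

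Of the other members of this class, *Nr2c1*, which encodes the testicular receptor TR2, had a log2 fold change of 0.50 ± 0.16 (adjusted p = 0.0112) in water mice, from 209 ± 7.12 normalized counts in water-PBS to 295 ± 52.0 in water-Dex, and 0.79 ± 0.16 (adjusted p = 6.81e-06) in zinc mice. *Nr2f6*, a COUP-TF relative, was at 469 ± 43.0 in water-PBS and 343 ± 41.4 in water-Dex, with -0.46 ± 0.14 (adjusted p = 0.00925), and -0.40 ± 0.14 (adjusted p = 0.0324) in zinc mice. Exons of *Ocel1* on the opposite strand cover 54.4% of the exon length of *Nr2f6*, and *Ocel1* had a log2 fold change of -0.61 ± 0.18 (adjusted p = 0.00430) in water mice. The part of *Ocel1* reads in the value of *Nr2f6* was not tested. *Hnf4a*, the most abundant member, was at 8318 ± 1184 in water-PBS and 10082 ± 862 in water-Dex, with a log2 fold change of 0.28 ± 0.12 (adjusted p = 0.0796).

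The immediate early receptors of the *Nr4a* family, which respond to stress and fasting signals within minutes to hours, stayed near the limit of detection. *Nr4a1* was at 9.37 ± 3.60 normalized counts in water-PBS and 12.0 ± 2.55 in water-Dex, and *Nr4a2* at 6.54 ± 3.36 and 7.75 ± 3.95. The 95% intervals of the log2 fold change in water mice were -0.73 to 1.42 for *Nr4a1* and -1.23 to 1.70 for *Nr4a2*. Both include 0 and rises past the fold threshold, and that of *Nr4a2* also includes falls past it. At this depth, changes inside these intervals could not be told from 0. *Hnf4g* and *Nr2f1* were also scarce, with group means between 2.79 and 6.52.

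The second question was what zinc did before and beside Dex. In PBS-injected mice 0 of 31 members were called by DESeq2 and 0 by edgeR, against 0.138% of all genes tested. An unadjusted p under 0.05 was reached by 4 members and by 790 of the 26191 genes with at least 1 count. That base includes genes too scarce for an adjusted p. *Nr6a1* was the only member with an adjusted p under 0.05, at a log2 fold change of -0.71 ± 0.18 (adjusted p = 0.0306), against 0.341% of all genes tested, and *Nr0b2* had the lowest value at -1.47, as given above. *Rxra* was at 4414 ± 281 normalized counts in water-PBS and 5156 ± 32.6 in zinc-PBS, a log2 difference of 0.22 ± 0.07 (adjusted p = 0.220), and its libraries did not overlap. *Esrrg* had -0.52 ± 0.25 (adjusted p = 0.835). The highest value of the 31 members was that of *Nr4a1*, at 1.02 ± 0.52 (adjusted p = 0.866), with overlapping libraries.

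In Dex-injected mice 0 of 31 members were called for zinc by DESeq2 and 0 by edgeR, against 0.469% of all genes tested. An unadjusted p under 0.05 was reached by 8 members and by 1375 of the 26191 genes with at least 1 count, scarce genes included. *Ppard* was the only member with an adjusted p under 0.05, being lower in zinc-Dex than in water-Dex by -0.64 ± 0.17 on the log2 scale (adjusted p = 0.0212), a ratio of 0.643, against 1.35% of all genes tested with an adjusted p under 0.05. Of the 31 members, 9 had zinc-Dex libraries all above and 1 all below those of water-Dex, against 20.0% of all genes tested. Among the former, *Rxrg* had a log2 fold change of 0.82 ± 0.33 (adjusted p = 0.260), *Nr3c2* 0.62 ± 0.25 (adjusted p = 0.289) and *Ppara* 0.33 ± 0.12 (adjusted p = 0.211).

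**Figure D4:**
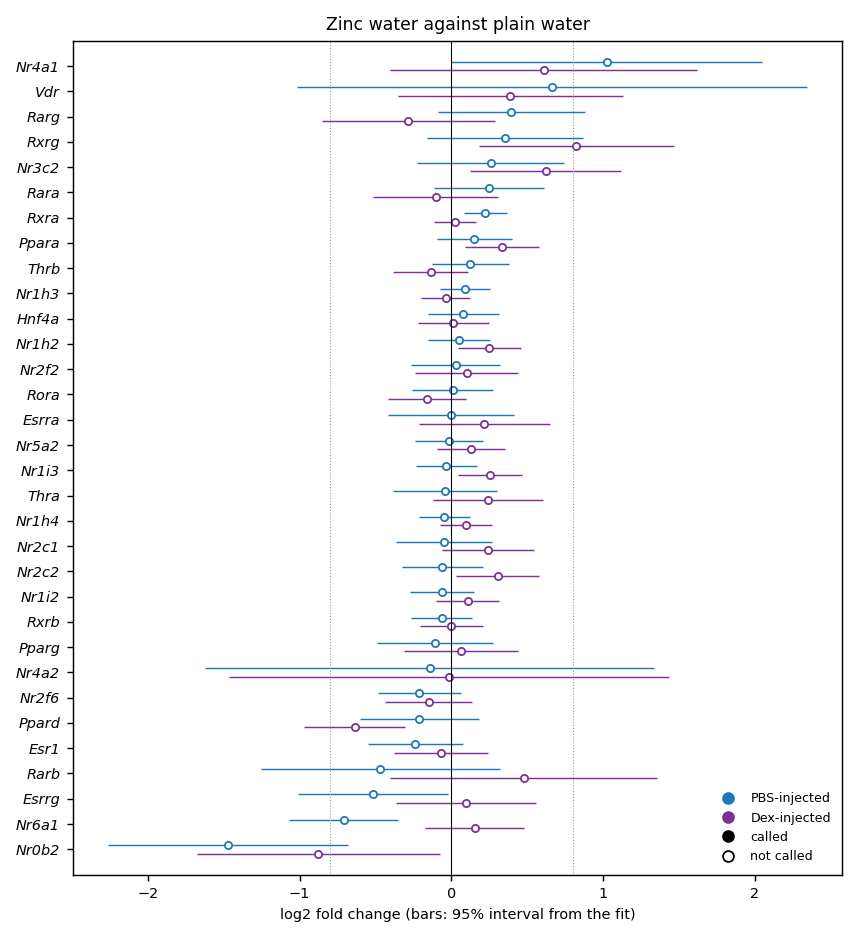
Log2 fold change of zinc water against plain water for the receptors, in PBS-injected (blue) and Dex-injected (purple) mice, with 95% intervals from the DESeq2 fit and dotted lines at the threshold of 0.8. No point is filled, since no member was called, and *Nr0b2* lies farthest to the left at -1.47 and -0.88.

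The mice that received both treatments were also set against the untreated control. In zinc-Dex against water-PBS 7 of 33 members were called, against 11.2% of all genes tested (5.59% called higher and 5.63% called lower). *Vdr* (log2 4.21 ± 0.73), *Ppard* (1.49 ± 0.19) and *Rora* (0.94 ± 0.13) rose, and *Nr0b2* (-1.66 ± 0.41), *Rarg* (-1.46 ± 0.28), *Nr2f2* (-1.09 ± 0.16) and *Rara* (-1.02 ± 0.20) fell. *Ppara* had a log2 fold change of 0.79 ± 0.12 (adjusted p = 5.50e-09), just under the fold threshold, and *Rxrg*, called in both Dex comparisons, was at -0.71 ± 0.29 (adjusted p = 0.0513). This comparison shares its controls with that of water-Dex against water-PBS.

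The interaction asked whether the effect of Dex differed between zinc and water mice. None of the 35 members was called by DESeq2 or edgeR, against 0.0191% of all genes tested. An unadjusted p under 0.05 was reached by 2 members, *Nr6a1* and *Rxra*, and by 522 of the 26191 genes with at least 1 count. The interaction of *Ppard* was -0.43 ± 0.26 with a 95% interval of -0.94 to 0.09, and that of *Rarg* was -0.68 ± 0.38 with an interval of -1.43 to 0.07. These intervals include 0 and also differences past the fold threshold.

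The promoters of 5 called members are printed: those of *Ppard* and *Vdr*, which had the largest rises with Dex in water mice, and those of *Rarg*, *Rxrg* and *Nr6a1*, which hold the core hexamer of nuclear receptor binding sites before a start. They show the 250 bases before an annotated transcription start in RefSeq (GRCm38.p6), read 5′ to 3′ on the strand of the gene, and capitals mark the hexamer AGGTCA or its reverse complement TGACCT.
Ppard (chr17:28232504-28232753, + strand): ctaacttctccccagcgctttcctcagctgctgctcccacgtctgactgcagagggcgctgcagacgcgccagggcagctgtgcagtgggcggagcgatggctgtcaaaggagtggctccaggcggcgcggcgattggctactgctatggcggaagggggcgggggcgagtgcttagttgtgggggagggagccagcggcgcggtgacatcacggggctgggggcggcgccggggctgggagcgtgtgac
Vdr (chr15:97908297-97908546, - strand): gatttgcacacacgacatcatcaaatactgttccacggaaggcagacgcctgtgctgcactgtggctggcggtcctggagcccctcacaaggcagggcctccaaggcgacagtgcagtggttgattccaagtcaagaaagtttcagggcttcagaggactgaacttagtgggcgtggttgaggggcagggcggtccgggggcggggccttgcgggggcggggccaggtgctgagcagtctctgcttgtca
Rarg (chr15:102257523-102257772, - strand): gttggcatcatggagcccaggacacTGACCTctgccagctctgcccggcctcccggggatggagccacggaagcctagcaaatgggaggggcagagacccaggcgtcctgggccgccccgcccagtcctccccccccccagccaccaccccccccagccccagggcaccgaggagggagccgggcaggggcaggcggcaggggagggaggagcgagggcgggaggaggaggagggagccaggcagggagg
Rxrg (chr1:167618015-167618264, + strand): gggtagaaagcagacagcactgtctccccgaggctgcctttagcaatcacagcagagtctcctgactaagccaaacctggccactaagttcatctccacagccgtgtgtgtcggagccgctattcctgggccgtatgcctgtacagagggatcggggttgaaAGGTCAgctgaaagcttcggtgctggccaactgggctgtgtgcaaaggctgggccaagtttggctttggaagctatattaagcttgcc
Nr6a1 (chr2:38784516-38784765, - strand): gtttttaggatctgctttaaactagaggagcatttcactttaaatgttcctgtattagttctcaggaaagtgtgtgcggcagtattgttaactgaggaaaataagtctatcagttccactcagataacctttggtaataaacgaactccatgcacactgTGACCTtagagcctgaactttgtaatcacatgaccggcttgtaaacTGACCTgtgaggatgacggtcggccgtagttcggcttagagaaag
The windows searched ran from 250 bases before to 50 bases after each start, on both strands. RefSeq gave 52 windows for 33 of the 35 members, and all 11 called members were matched, with 20 windows. The hexamer AGGTCA was in 10 member windows of 9 members and in 16.3% of all 32851 windows. Of the called members, *Rarg* had it 225 bases before its first start, *Rxrg* 88 bases before its second start, *Nr6a1* 91 and 45 bases before its second start, and *Rara* downstream of a start. The promoters of *Ppard* and *Vdr* held none of the motifs searched and had 68.3% and 61.3% G and C bases, against a median of 52.7% over all windows.

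The full palindrome of glucocorticoid response elements, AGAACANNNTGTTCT, was in no member window and in 0.00913% of all windows. Its arm TGTTCT was in 4 windows of 3 members and in 19.0% of all windows, and in 0 of the 20 windows of called members. Direct repeats of AGGTCA spaced by 1 base (AGGTCANAGGTCA) or by 5 bases (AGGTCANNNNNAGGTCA), the latter a retinoic acid response element, were in 0 member windows and in 0.0396% and 0.00913% of all windows. The letters TATAAA were in 6 member windows and in 13.6% of all windows, among them that of *Nr0b2*, 28 bases before its start. The 2 direct repeats contain the hexamer, and the palindrome contains its arm, so these matches overlap. The palindrome and both repeats were so rare over all windows that their absence cannot set members apart from other genes. Only exact letters near annotated starts were searched, so sites elsewhere or with other letters were not tested.

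Nuclear receptors act through coregulators, and a list of 30 coactivators and corepressors was read in the same fits. Dex raised 7 and lowered 0 of 30 in water mice, and raised 6 and lowered 0 of 30 in zinc mice, with median log2 fold changes of 0.18 and 0.09 against -0.01 over all genes in each comparison. In each of these comparisons 9.68% of all genes tested were called in either direction. In both zinc comparisons DESeq2 called 0, and 0 had an unadjusted p under 0.05. *Lpin1*, a phosphatidate phosphatase that also coactivates PPARα, went from 1996 ± 1105 normalized counts in water-PBS to 18754 ± 860.0 in water-Dex (log2 3.23 ± 0.53, adjusted p = 2.65e-08). *Bcl6*, a repressor, had 1.90 ± 0.70 (adjusted p = 0.0341), *Ppargc1b*, a PPAR and ERR coactivator, 1.32 ± 0.26 (adjusted p = 4.49e-06), and *Cited2*, which binds the acetylases CBP and p300, 1.23 ± 0.17 (adjusted p = 6.37e-11). *Bcl6* counts were spread widely within groups and its value in zinc mice was not called.

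**Figure D5:**
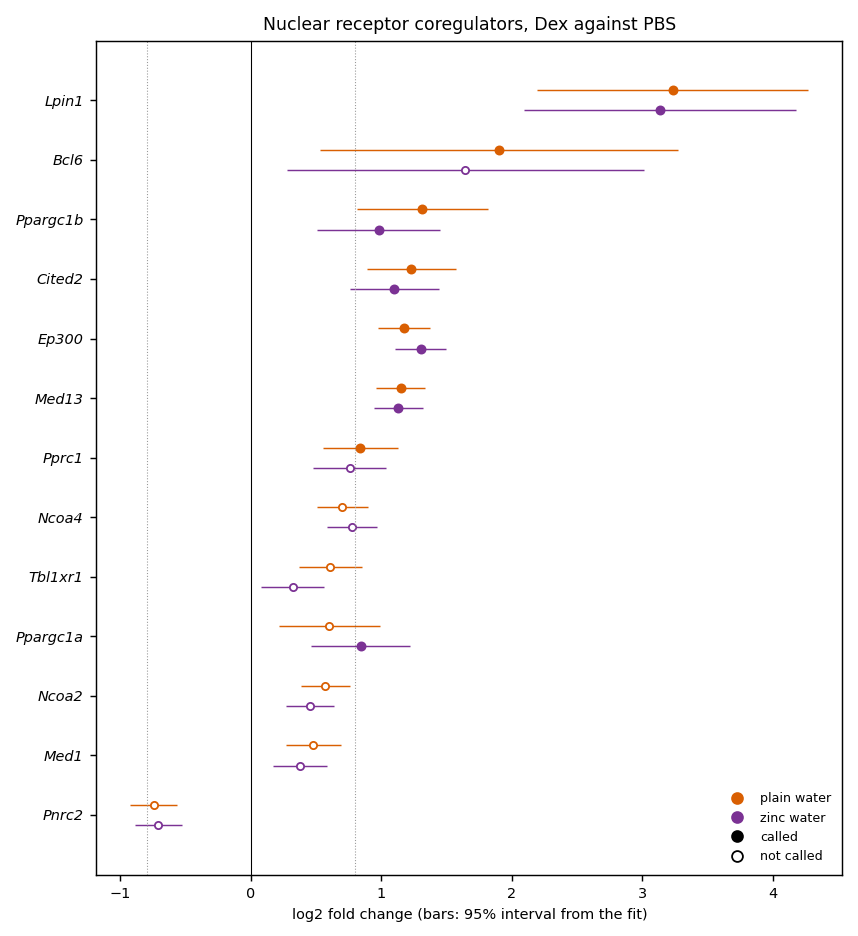
Log2 fold change of Dex against PBS for the nuclear receptor coregulators with an adjusted p under 0.05 in at least 1 of the Dex comparisons, in mice on plain water (orange) and on zinc water (purple), with 95% intervals from the DESeq2 fit, filled points for called genes and dotted lines at the threshold of 0.8. *Lpin1* lies farthest to the right at 3.23 and 3.14, and no filled point lies to the left of 0.

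Known target genes of the members were followed as lists by receptor. Of 9 targets of CAR and PXR, 5 rose and 0 fell in water-Dex against water-PBS, and 6 rose and 0 fell in zinc-Dex against zinc-PBS. Their median log2 fold changes were 0.84 and 1.02, against -0.01 over all genes in each, and 9.68% of all genes tested were called in either direction in each. The largest changes in water mice were those of *Cyp2b10*, the standard CAR target, from 384 ± 96.8 to 6189 ± 722 normalized counts (log2 4.01 ± 0.21, adjusted p = 3.84e-79), *Alas1*, the rate-limiting enzyme of heme synthesis (2.32 ± 0.40), *Por*, the electron donor of cytochromes P450 (1.51 ± 0.11), and *Gstm3*, a glutathione transferase (1.43 ± 0.23). Zinc lowered 1 of the 9 in PBS-injected mice, *Cyp2b10*, to 194 ± 44.3 (log2 -0.98 ± 0.22, adjusted p = 0.00374), against 0.138% of all genes called. In Dex-injected mice zinc raised 1 of the 9, *Cyp2c55*, named after its value was seen, against 0.469% of all genes called. It went from 119.6 ± 30.2 in water-Dex to 256 ± 66.1 in zinc-Dex (log2 1.10 ± 0.26, adjusted p = 0.00524). Of the 9, 5 had an unadjusted p under 0.05.

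Of 13 PPARα targets, 2 rose and 1 fell in water mice and 5 rose and 0 fell in zinc mice, against the same 9.68% of all genes, with medians of 0.07 and 0.36 on the log2 scale. In zinc-PBS against water-PBS their median was -0.27, with 0 called, against 0.138% of all genes tested. In zinc-Dex against water-PBS 3 rose and 1 fell, against 11.2% of all genes tested. The interaction was not called for any of them. *Acot1*, an acyl-CoA thioesterase, had a log2 fold change of 1.82 ± 0.46 in water mice, *Cyp4a14*, a fatty acid hydroxylase, 0.95 ± 0.20, and *Plin2*, a coat protein of lipid droplets, -1.43 ± 0.22. Of 8 LXR targets, 0 rose and 1 fell in water mice and 0 rose and 2 fell in zinc mice, and 1 of 8 is near the 9.68% of all genes. The gene that fell in water mice was *Srebf1*, the regulator of fatty acid synthesis, at -1.83 ± 0.16. None of the 8 FXR targets and none of the 6 HNF4α targets was called in either Dex comparison. The unadjusted p was under 0.05 for 0 and 1 of the FXR targets and for 1 and 3 of the HNF4α targets, in water and zinc mice. Of the 26191 genes with at least 1 count, 4537 and 4646 reached it. At an adjusted p under 0.05, 1 HNF4α target was lower in water mice, against 21.6% of all genes tested in either direction. In zinc mice 3 were higher and 0 lower, against 20.1%.

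The 4 retinoic acid receptor targets did not move together. *Cyp26a1*, the retinoic acid hydroxylase that is a classical target, rose by 1.15 ± 0.39 on the log2 scale in water mice (adjusted p = 0.0191), and *Cyp26b1*, a related hydroxylase, fell by 2.07 (SE 0.62, adjusted p = 0.00659). In zinc mice *Cyp26a1* was called at 2.58 ± 0.39 and *Cyp26b1* was not. Of 5 thyroid hormone receptor targets 1 rose in each Dex comparison, *Thrsp*, a lipogenic protein (2.27 ± 0.35 and 2.60 ± 0.35). Over all genes tested, 9.68% were called in either direction in each Dex comparison.

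The 4 targets of ROR, which carry the element shared with Rev-erbs, were not called in either Dex comparison, with an unadjusted p under 0.05 for 1 and 2 of them. In zinc-Dex against water-Dex 3 of the 4 fell, against 0.469% of all genes tested, and they are named here after their values were seen. The list was chosen with earlier results of these data known, so this count is no independent test of it. *Npas2* had a log2 fold change of -1.80 ± 0.51 (adjusted p = 0.0387), *Arntl* -1.28 ± 0.29 (adjusted p = 0.00252) and *Cry1* -1.16 ± 0.32 (adjusted p = 0.0271), all parts of the circadian clock. The same 3 genes were called lower in zinc-Dex against water-PBS. In zinc-PBS against water-PBS DESeq2 called 0 of the 4, but all 4 had values below 0 (median log2 -0.74) and 3 had an unadjusted p under 0.05. In 3 the libraries did not overlap, for which the share over all genes is not given here. There *Npas2* had -1.60 ± 0.50 (adjusted p = 0.192) and *Arntl* -0.92 ± 0.29 (adjusted p = 0.189). The paper lists both genes as reduced by zinc in liver, with cut-offs of 0.8 on the log2 scale and p under 0.05. Its fold changes for them are close to those found here, so the difference lies in the p-values. The cause of this difference was not tested. *Rora* itself had -0.16 ± 0.13 in zinc-Dex against water-Dex, and *Nr1d1* had 0.77 ± 0.19 (adjusted p = 0.00815).

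Of 13 nuclear receptor genes outside the 35 members, 6 had an adjusted p in the Dex comparisons. In water mice 0 rose and 2 fell, against 9.68% of all genes called in each Dex comparison. The 2 were *Nr1d1* and *Esrrb*, the latter at 14.6 ± 3.75 normalized counts in water-PBS and -1.52 ± 0.58 (adjusted p = 0.0418). In zinc mice *Nr1d1* alone fell, by 1.49 on the log2 scale (SE 0.18). Markers of B cells fell beside these changes: the 4 B cell markers summed to 28.6 to 43.1 normalized counts in water-PBS and 6.93 to 15.2 in water-Dex. Of the 4, 2 were called lower, against 4.79% of all genes tested. In zinc mice they summed to 31.5 to 46.9 after PBS and 13.3 to 18.5 after Dex, with 0 called by DESeq2 and 2 at an unadjusted p under 0.05. The 5 red blood cell markers summed to 888 to 1561 in water-PBS and 1212 to 2135 in water-Dex. In zinc mice they summed to 778 to 968 after PBS and 1362 to 1513 after Dex, a ratio of 1.64. Of the 5, 1 was called higher, against 9.68% of all genes tested called in either direction. In 4 the libraries did not overlap, against 38.1% of all genes tested. The part of the B cell and red blood cell markers in the results on receptors was not tested.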

How the data were processed

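The libraries were stranded and were read from 1 end. The authors mapped reads to mm10 with hisat 2.0.4, according to the methods and the submitters' processing notes, and the deposited table holds raw read counts per gene from featureCounts without multimapping reads. Which annotation release was counted, and with which strand setting, is not given in the sources used here. Replicates were not pooled, and 0 columns were left unused.

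The members and gene lists were chosen with earlier results of these data known. DESeq2 1.42.0 (R 4.3.3), the tool of the study's methods, was fitted once to all 12 libraries with a term for each group. Wald tests used unshrunken log2 fold changes and default filters, over all genes. To be called, a gene had to pass 0.05 after Benjamini-Hochberg adjustment and to move by more than 0.8 on the log2 scale. With 3 mice against 3, an exact permutation test cannot go below 0.10. No library was a copy of another: variation between replicates was 5.70 to 18.8 times that of counting (chi-square per degree of freedom). The fit was tested on simulated data.

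Exon lengths, coordinates and overlapping exons were taken from GENCODE M21 on GRCm38, and promoter windows from RefSeq. Named with values in every library are members called in at least 1 comparison. Other members with an adjusted p under 0.05, at 3 counts or fewer per library, or among the 5 most abundant per exon length were named with group values. From the other lists, up to 4 called genes averaging 50 or more normalized counts were named, by the size of their change in water-Dex against water-PBS. Alternatives were edgeR 4.0.16 (quasi-likelihood test), TMM factors, a filter of 10 counts in 3 libraries (13255 genes), the replicate number as a term, each library left out, only the 6 libraries compared, calls without the fold threshold, and DESeq2 with its independent filtering or its Cook's distance filter turned off. Some results of the gene lists are not reported here.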

Additional observations from a re-analysis of the deposited data

Results flagged for a closer look

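For *Nr6a1*, every zinc-PBS mouse was below every water-PBS mouse, at a log2 fold change of -0.71 ± 0.18 (SE; adjusted p = 0.0306). Every zinc-Dex mouse was above every water-Dex mouse, but that difference of 0.15 ± 0.17 (adjusted p = 0.877) had a 95% interval of -0.17 to 0.48, which includes 0. The interaction of zinc and Dex was 0.87 ± 0.25 on the log2 scale, with an unadjusted p of 0.000446 and an adjusted p of 0.513 over all genes (DESeq2, Wald test), so it failed the correction.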

How the results depend on the processing

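Over 14 alternatives, 48 values of members gave 672 values, of which 627 stayed on the same side of the threshold, 7 lost a call, 38 gained one and 0 changed direction. The lost calls were those of *Rara* without water-PBS replicate 3 and of *Rarb* in 6 alternatives (adjusted p up to 0.212), both in water-Dex against water-PBS. Fitting only the 6 libraries compared called 1 member, *Nr0b2*, in zinc-PBS against water-PBS in place of 0. With no fold threshold, the calls were 1 in zinc-PBS against water-PBS, 14 in water-Dex against water-PBS, 15 in zinc-Dex against zinc-PBS, 1 in zinc-Dex against water-Dex and 13 in zinc-Dex against water-PBS. Leaving out 1 library gave 0 to 1 calls in zinc-PBS against water-PBS. The gained calls were *Nr6a1* without water-PBS replicate 2 (log2 -0.80) or zinc-PBS replicate 3 (-0.87) and *Nr0b2* without water-PBS replicate 3 (-1.68). In zinc-Dex against water-Dex it gave 0 to 1, with *Nr0b2* called without zinc-Dex replicate 2 (-1.24). In water-Dex against water-PBS it gave 7 to 9, in zinc-Dex against zinc-PBS 9 to 12 and in zinc-Dex against water-PBS 7 to 9. *Nr0b2* was also called in water-Dex against water-PBS without water-Dex replicate 2 (-1.12). The cause of these differences was not tested. Another scaling moved the median of all genes by less than 0.01 (log2). Coregulators called for Dex numbered 5 to 7 in water mice and 5 to 9 in zinc mice, all higher, except with no fold threshold, where 12 were higher and 1 lower in water mice and 11 were higher and 1 lower in zinc mice.

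With a replicate block, 8 members were called for Dex in water mice, 9 for Dex in zinc mice, 7 in zinc-Dex against water-PBS and 0 for zinc before Dex, for zinc after Dex and for the interaction, the counts found without it. The numbers do not pair the samples: 18 same-number pairs had correlations of -0.150 to 0.0547, 0 of them over 0.1, and 2 of 12 libraries correlated best with their own number. Depth limits *Vdr* before Dex, the *Nr4a* genes, *Hnf4g* and *Nr2f1*.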
